A study of Mus musculus with 18 samples.

Results

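The genes of mouse chromosomes 8 and 11 were described as 2 blocks of the genome, to ask how their RNA levels in Pax7-/- embryonic stem cells compared with those in Pax7+/+ cells. Each gene was represented by its probe set with the highest mean, and a gene was kept where that mean over all 18 arrays lay above the 75th percentile of all genes, 6.25 log2. This left 364 genes of chromosome 8 and 510 of chromosome 11, together 874 of the 22180 genes with 1 symbol. The chromosomes were chosen from the difference between the genotypes in these same arrays, so every genotype difference given here is a description, without a test. At the threshold, Mir1199 (6.24 log2) and Nol3 (6.25) of chromosome 8 lay just below and Wwp2 (6.25) and Dync1li2 (6.26) just above, and on chromosome 11 Spdl1 and Rad50 (both 6.25) lay just below and Etv4 and Gpr75 (both 6.26) just above.

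The cells were F1 embryonic stem cells of C57Bl6N and 129Sv, either Pax7+/+ or Pax7-/-, and both genotypes went through the same cultures: with LIF and undifferentiated at day 0, and without LIF but with RA and ITS as embryoid bodies (day 7) and their outgrowths (day 21). Each of the 6 groups had 3 arrays, labelled as biological replicates. How the Pax7-/- allele was made, and whether each genotype was 1 clone or several, is not given in the sources used here, so a difference between genotypes and a difference between cell lines cannot be told apart. Nothing says that the replicates were separate cultures, so errors and p-values measure the spread between these arrays, which may be technical.

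A diploid mouse cell carries each autosome as a pair, and a cell with an extra copy of a chromosome usually makes more RNA from most genes on it, because each copy is transcribed on its own. Mouse embryonic stem cells gain whole chromosomes in culture, and chromosomes 8 and 11 are among those most often reported as gained. RNA arrays measure transcript levels and do not count chromosomes, and no karyotype was used here.

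To show which genes stand behind the values, for each chromosome 1 promoter of a gene with a large day 21 difference is printed with that of a gene at the chromosome's median difference. The former is the gene with the largest difference that passed among those matched to a RefSeq promoter; Snord13 of chromosome 8, with a larger difference, was not matched. The sequences run from 250 bases before to 50 after the gene's start, 5′ to 3′ on the gene's strand, from RefSeq (GRCm38.p6), and CpG dinucleotides are in capitals.
Cyb5b: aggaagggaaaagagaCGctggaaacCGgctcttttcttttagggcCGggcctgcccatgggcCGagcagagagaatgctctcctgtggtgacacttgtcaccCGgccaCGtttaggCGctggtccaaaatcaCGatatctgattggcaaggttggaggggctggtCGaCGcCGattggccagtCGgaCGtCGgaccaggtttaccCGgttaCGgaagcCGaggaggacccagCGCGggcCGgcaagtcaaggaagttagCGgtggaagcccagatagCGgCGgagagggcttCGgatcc
Plcg2: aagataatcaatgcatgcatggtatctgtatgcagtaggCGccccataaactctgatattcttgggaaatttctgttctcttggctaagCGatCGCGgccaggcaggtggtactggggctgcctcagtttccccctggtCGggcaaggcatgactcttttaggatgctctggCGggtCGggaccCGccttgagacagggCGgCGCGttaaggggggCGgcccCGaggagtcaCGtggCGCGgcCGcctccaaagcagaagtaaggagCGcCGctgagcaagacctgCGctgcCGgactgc
C1qbp: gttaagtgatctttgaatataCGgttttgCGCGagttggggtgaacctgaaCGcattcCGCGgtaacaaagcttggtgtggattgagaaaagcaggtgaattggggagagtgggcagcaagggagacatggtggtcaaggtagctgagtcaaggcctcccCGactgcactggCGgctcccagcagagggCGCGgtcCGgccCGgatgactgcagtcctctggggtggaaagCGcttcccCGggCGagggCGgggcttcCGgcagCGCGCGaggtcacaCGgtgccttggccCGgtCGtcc
Usp34: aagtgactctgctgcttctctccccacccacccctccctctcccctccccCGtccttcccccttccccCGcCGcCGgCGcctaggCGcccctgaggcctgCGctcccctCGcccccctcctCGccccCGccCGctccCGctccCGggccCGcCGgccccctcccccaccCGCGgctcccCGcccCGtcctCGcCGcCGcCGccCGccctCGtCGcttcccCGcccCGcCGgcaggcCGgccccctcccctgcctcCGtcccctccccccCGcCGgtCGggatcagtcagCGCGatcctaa

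Cyb5b (chr8:107150411-107150710, plus strand), a cytochrome b5 of the outer mitochondrial membrane, held 24 CpG in these 300 bases, and 20.0% of the 27025 RefSeq promoters of that length held as many or more. The promoter of Plcg2 (chr8:117498025-117498324, plus strand), a phospholipase C, held 21, reached by 25% of promoters. On chromosome 11, C1qbp (chr11:70982977-70983276, minus strand), a protein of the mitochondrial matrix, held 23 (21.6% of promoters), and Usp34 (chr11:23306645-23306944, plus strand), a deubiquitinase, held 36 (6.02%). CG reads the same on both strands. Promoters were matched for 682 of the 874 genes, and for 70.9% of those on chromosome 8, so no comparison of promoter composition was made over the whole set.

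Judged by the SD of log2 values over probe sets, the arrays were of 2 kinds: 10 narrow arrays (SD 1.37 to 1.45) and 8 wide arrays (SD 1.79 to 1.85). Every group held arrays of both sets, the set was kept as a block in the fit, and values are also given within each set. Where 3 values of a group are listed, narrow arrays come before wide ones: 2 narrow and 1 wide, except in Pax7+/+ at day 7 and Pax7-/- at day 21, with 1 narrow and 2 wide. Array medians lay between 4.55 and 4.97 log2. The Pax7 probe set itself (chromosome 4) read 4.79 to 6.22 log2 in Pax7+/+ and 4.76 to 6.37 in Pax7-/- cells at day 0, 4.68 to 6.35 and 4.99 to 6.32 at day 7, and 5.53 to 6.19 and 5.36 to 6.12 at day 21, so the genotypes overlapped at every day. No source used here says whether the probes cover the changed stretch of Pax7, so this is no check of the labels. The mean level of 8 stem cell markers was 8.04 log2 in Pax7+/+ and 8.22 in Pax7-/- cells at day 0, 7.31 and 6.94 at day 7, and 5.66 and 6.33 at day 21. The probe signals have no true zero, so no marker can be called absent.

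The genes of both chromosomes read higher in Pax7-/- cells at every day. With the median over the 4490 equally selected genes of the other 17 autosomes subtracted, the median difference of chromosome 8 genes (Pax7-/- minus Pax7+/+) was 0.23, 0.28 and 0.29 log2 at days 0, 7 and 21, a ratio of 1.17, 1.21 and 1.22. For chromosome 11 it was 0.24, 0.30 and 0.28 log2, a ratio of 1.18, 1.23 and 1.22. For scale, 3 copies against 2 would be 0.585 on a log2 scale that was linear in dose, and neither chromosome's median reached it. Before the subtraction the medians were 0.15, 0.24 and 0.36 log2 on chromosome 8, 0.16, 0.27 and 0.35 on chromosome 11, and -0.08, -0.04 and 0.06 on the other autosomes.

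None of the other 17 autosomes came near these values. Their medians ran from -0.02 (chromosome 18) to 0.03 (chromosome 5) at day 0, from -0.03 (chromosome 9) to 0.04 (chromosome 12) at day 7 and from -0.05 (chromosome 7) to 0.08 (chromosome 16) at day 21. Both chromosomes stood above the other 17 within the narrow arrays alone, at 0.21, 0.21 and 0.19 log2 for chromosome 8 and 0.19, 0.24 and 0.19 for chromosome 11. In the wide arrays alone chromosome 8 was at 0.28, 0.36 and 0.36 log2 and chromosome 11 at 0.32, 0.35 and 0.33, between 1.36 and 1.92 times the narrow value of the same day.

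**Figure D1:**
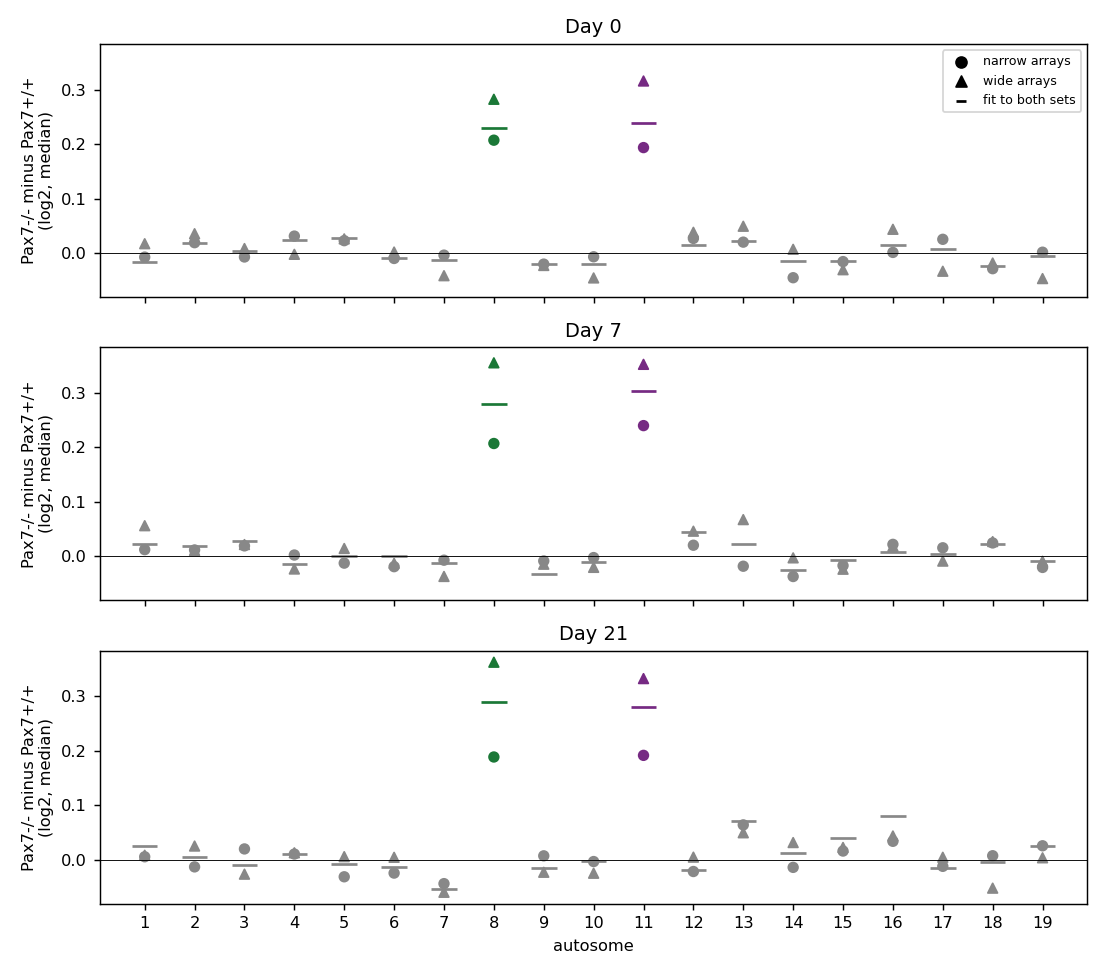
Median Pax7-/- minus Pax7+/+ difference (log2) of each autosome's genes above the threshold, less the median of the 17 other autosomes, at days 0, 7 and 21; circles are narrow arrays, triangles wide arrays and bars the fit to both. Chromosome 8 (green) and chromosome 11 (purple) lie between 0.19 and 0.36 log2, while in the fit to both sets the other autosomes lie between -0.05 and 0.08.

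Single arrays also kept the genotypes apart. For each array the median deviation of the chromosome's genes from the mean of the 6 groups in its array set was taken, less that of the other autosomes. On chromosome 8 the 9 Pax7+/+ arrays scored -0.13 ± 0.03 (SD), from -0.17 to -0.09, and the 9 Pax7-/- arrays 0.12 ± 0.04, from 0.07 to 0.20. On chromosome 11 the Pax7+/+ arrays scored -0.13 ± 0.04, from -0.19 to -0.07, and the Pax7-/- arrays 0.13 ± 0.05, from 0.07 to 0.19. No Pax7-/- array overlapped a Pax7+/+ array on either chromosome. On the array of Pax7+/+ day 21 replicate 3, however, the chromosome 11 score (-0.0714) lay inside the range of the other autosomes (lowest -0.0856). The SD between replicates of a group, pooled over groups, was 0.04 for each chromosome.

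**Figure D2:**
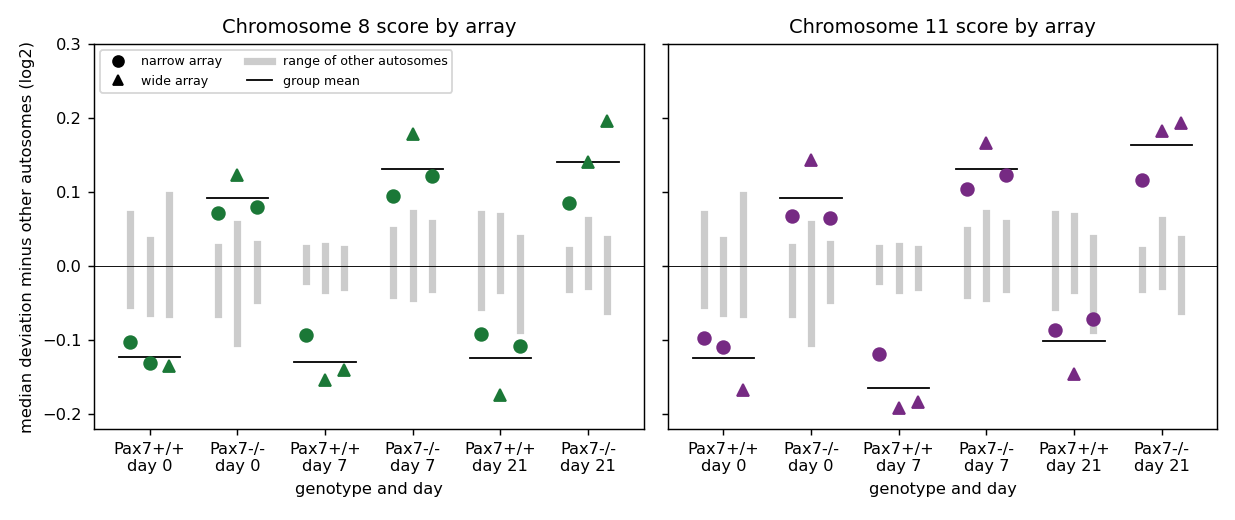
Chromosome score of each array (log2) by genotype and day, for chromosome 8 and chromosome 11; circles are narrow arrays, triangles wide arrays, lines group means of 3 arrays, and grey bars the range of the other 17 autosomes on that array. The Pax7+/+ arrays lie below 0 and the Pax7-/- arrays above 0 on both chromosomes, at -0.17 to -0.09 against 0.07 to 0.20 on chromosome 8.

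The difference was spread over most of the genes and not carried by a few. Of the 364 chromosome 8 genes, 299, 311 and 295 lay above the other autosomes' median at days 0, 7 and 21 (82.1%, 85.4% and 81.0%). Of the 510 chromosome 11 genes, 419, 451 and 404 did (82.2%, 88.4% and 79.2%). The middle 50% of genes spanned 0.37, 0.35 and 0.47 log2 on chromosome 8, 0.37, 0.34 and 0.49 on chromosome 11, and 0.31, 0.30 and 0.45 on the other autosomes. The distribution was thus displaced, and its middle 50% was somewhat wider than on the other autosomes. In all 6 combinations of day and array set, 139 chromosome 8 genes (38.2%) and 200 chromosome 11 genes (39.2%) lay above that median, against 232 of the 4490 others (5.17%). In none of the 6 lay 1 chromosome 8 gene, 6 chromosome 11 genes and 223 others.

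**Figure D3:**
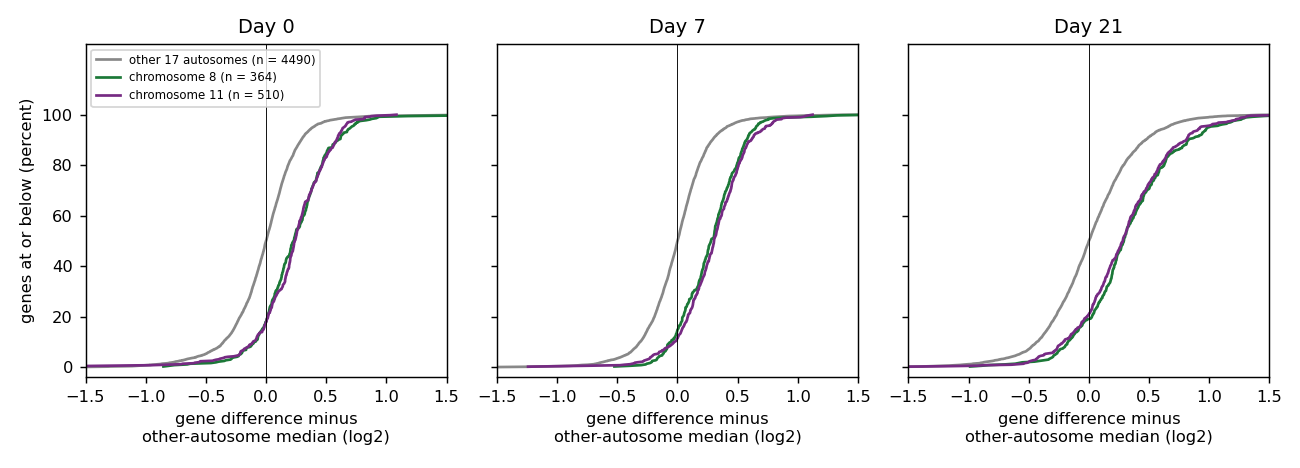
Cumulative share of genes (percent) by Pax7-/- minus Pax7+/+ difference less the other autosomes' median (log2) at days 0, 7 and 21. The curves of chromosome 8 (364 genes) and chromosome 11 (510) run to the right of the 4490 other genes, with 81.0% and 79.2% of their genes above 0 at day 21.

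The higher readings ran along the whole length of both chromosomes. Split into 4 equal groups in chromosome order, chromosome 8 genes had medians of 0.24, 0.21, 0.28 and 0.22 log2 at day 0, from the group of Insr to Fat1 down to that of Psmd7 to Itgb1. The 4 groups of chromosome 11, from Sfi1 to Tbcd, had 0.28, 0.23, 0.24 and 0.23 log2. At days 7 and 21 the lowest of the 16 group medians in the fit to both sets was 0.20 (the second group of chromosome 8, Slc25a4 to Nacc1, day 7) and the highest 0.36. On narrow arrays alone the lowest was 0.09 (the last group of chromosome 8, day 21), and on wide arrays alone 0.28. In running windows of 31 neighbouring genes, all 334 windows of chromosome 8 and all 480 of chromosome 11 were above 0 at each day. Chromosome 8 windows lay between 0.08 and 0.37 log2 at day 0, 0.08 and 0.43 at day 7, and 0.11 and 0.46 at day 21. Windows of the other autosomes lay between -0.18 and 0.15, -0.19 and 0.16, and -0.22 and 0.23. The lowest windows of both chromosomes therefore fell inside the range seen elsewhere, and no break between a displaced and an undisplaced stretch appeared at this window size.

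**Figure D4:**
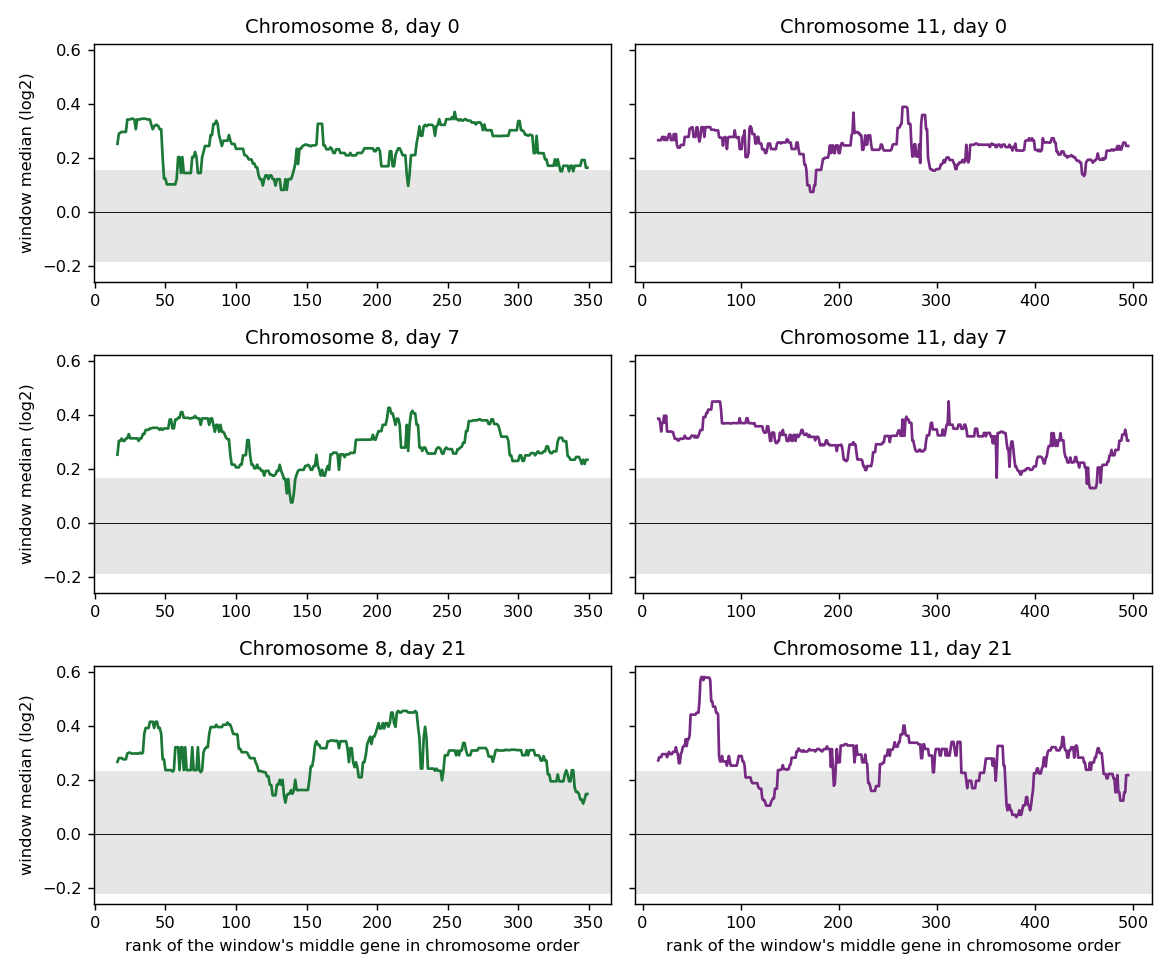
Median Pax7-/- minus Pax7+/+ difference (log2, less the other autosomes' median) in windows of 31 neighbouring genes, by rank of the middle gene in chromosome order; the grey band is the range of such windows on the other 17 autosomes. Chromosome 11 windows lie between 0.07 and 0.39 at day 0, 0.13 and 0.45 at day 7, and 0.06 and 0.58 at day 21.

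The size of the difference followed the level of the gene. Over all measured genes and at day 0, chromosome 8 genes below the 25th percentile of mean level had a median of -0.03 log2, those between the 75th and 90th 0.19 and those above the 90th 0.28. On chromosome 11 the same classes had 0.01, 0.19 and 0.34 log2. At day 21 the classes ran 0.02, 0.25 and 0.38 on chromosome 8 and 0.01, 0.24 and 0.31 on chromosome 11. Each class was set against genes of its own level on the other autosomes. Within the wide arrays alone the order of the upper pair of classes turned for chromosome 8 at day 0, at 0.32 log2 between the 75th and 90th percentiles and 0.24 above the 90th, and at day 21, at 0.38 and 0.36. It did not turn for chromosome 8 at day 7 (0.36 in both) or for chromosome 11, which had 0.31 and 0.32 at day 0, 0.33 and 0.37 at day 7, and 0.31 and 0.37 at day 21. Probes near background respond less to a change in RNA, and how much of the pattern this makes up was not tested.

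Counts of single genes that passed in limma (Benjamini-Hochberg adjusted p under 0.05 over all 22180 genes) are given as a description. At day 0, 52 of the 874 genes passed, 42 higher and 10 lower in Pax7-/-; over all genes 1.28% passed, 0.388% higher and 0.893% lower. The 52 were 5.95% of the genes described, beside 4.3% of the 4490 equally selected genes of the other autosomes, of which 0.69% were higher and 3.61% lower. At day 7, 42 passed (4.81%), all higher, against 0.627% of all genes (0.32% higher and 0.307% lower) and 1.49% of the 4490; the 0 lower genes in limma stood beside 14 at an unadjusted p under 0.05. At day 21, 279 passed (31.9%), 273 higher and 6 lower, against 4.89% of all genes (3.82% and 1.07%) and 12.9% of the 4490. Of all genes called higher, 22 of 86 at day 0, 14 of 71 at day 7 and 126 of 847 at day 21 lay on chromosome 8, which holds 4.67% of measured genes. Chromosome 11, with 7.43%, held 23, 30 and 188. These shares count genes of any level. Above the threshold lay 35.1% of the measured genes of chromosome 8 and 30.9% of those of chromosome 11, against 24.4% on the other autosomes. The counts at days 0 and 7 hung on single arrays, while that at day 21 stayed between 193 and 296 when any 1 array was left out. The day 0 count was 25, 20 or 24 without Pax7+/+ day 0 replicate 1, 2 or 3, and 28, 24 or 23 without Pax7-/- day 0 replicate 1, 2 or 3. The day 7 count was 22, 2 or 2 without Pax7+/+ day 7 replicate 1, 2 or 3, 8, 7 or 2 without Pax7-/- day 7 replicate 1, 2 or 3, and 27 without Pax7-/- day 21 replicate 2. Without the array set in the fit none passed at days 0, 7 and 21 (10, 11 and 88 at an unadjusted p under 0.05).

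Among the genes above the other autosomes' median at each day and in each array set, those whose smallest difference was largest are described first, with Snord13 further on. Aatf (chromosome 11), a nucleolar protein of ribosome assembly, read 5.37 and 5.02 log2 on narrow arrays and 7.04 on the wide array in Pax7+/+ cells at day 0, and 5.79 and 5.91 with 7.96 in Pax7-/- cells. At day 7 it read 5.10 with 7.15 and 7.02 on wide arrays against 5.89 and 5.85 with 7.90, and at day 21 5.18 and 4.82 with 6.48 against 5.72 with 7.41 and 7.66. Within each array set the genotypes did not overlap at any day. The differences were 0.74 ± 0.14, 0.75 ± 0.14 and 0.81 ± 0.14 log2 (SE).

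Psmd12 (chromosome 11), a subunit of the proteasome's regulatory lid, behaved alike at days 0 and 7. Its day 0 values were 6.80 and 6.34 (narrow) with 8.56 (wide) in Pax7+/+ and 7.08 and 7.17 with 9.08 in Pax7-/- cells. Its differences were 0.54 ± 0.14, 0.51 ± 0.14 and 1.00 ± 0.14 log2 at days 0, 7 and 21. Ckap2 (chromosome 8), a microtubule-associated protein of dividing cells, had 0.69 ± 0.16, 0.62 ± 0.16 and 1.26 ± 0.16. Ccng1 (chromosome 11), the p53 target cyclin G1, had 0.60 ± 0.17, 0.69 ± 0.17 and 1.25 ± 0.17, and Cbfb (chromosome 8), the partner subunit of Runx factors, 0.56 ± 0.14, 0.52 ± 0.14 and 0.64 ± 0.14. Besides Aatf, 3 genes were called higher at all 3 days and are named after their values were seen: Otud4 (chromosome 8), a deubiquitinase, at 0.60, 0.61 and 0.45 log2, Pdpr (chromosome 8), a regulator of pyruvate dehydrogenase phosphatase, at 0.49, 0.49 and 0.45, and Usp22 (chromosome 11), the deubiquitinase of the SAGA complex, at 0.74, 0.59 and 0.56. Over any day 311 genes were called higher, 28 of them at both days 0 and 21 and 18 at both days 7 and 21. Each of these counts includes the 4 called at all 3 days. The same counts were not made over all genes or the other autosomes, so they are not read as a result. The comparisons at the 3 days share the fit's estimate of spread.

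Snord13 (chromosome 8), a small nucleolar RNA that guides modification of ribosomal RNA, had the largest difference of the named genes at day 0. It read 5.68, 6.48 and 8.07 log2 in Pax7+/+ and 9.29, 9.19 and 9.79 in Pax7-/- cells at day 0, where the genotypes did not overlap. At day 7 it read 5.81 on the narrow array and 8.13 and 8.62 on wide arrays in Pax7+/+, and 7.01 and 8.19 with 9.22 in Pax7-/- cells, apart within each array set. At day 21 the values 5.48, 6.07 and 5.57 lay below 7.14, 9.20 and 8.33. The differences were 2.68 ± 0.47, 1.07 ± 0.48 and 2.06 ± 0.48 log2, of which that at day 7 did not pass. Small RNA genes have near copies, so the reading is uncertain.

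Slc7a6 (chromosome 8), an amino acid transporter, read 5.81, 5.86 and 8.06 in Pax7+/+ and 7.32, 7.86 and 9.29 in Pax7-/- cells at day 0. The narrow and the wide arrays each kept the genotypes apart, at a difference of 1.58 ± 0.19 log2, and the difference was 0.86 ± 0.19 at day 7 and 0.14 ± 0.19 at day 21. The other leading day 0 genes among those that passed were Agpat5, an acyltransferase of phospholipid synthesis (0.86 ± 0.15), and Tmem184c (0.85 ± 0.13) on chromosome 8. On chromosome 11 they were Ranbp17, a nuclear transport receptor (1.01 ± 0.22), Ppm1d, a p53-induced phosphatase (0.95 ± 0.16), Phf23 (0.84 ± 0.16) and P4hb, a protein disulfide isomerase (0.80 ± 0.17).

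The 4 genes named for lower readings in Pax7-/- cells at day 0 had positive differences at day 7. Cdh11 (chromosome 8), a cadherin of mesenchymal cells, read 7.28, 7.54 and 9.41 in Pax7+/+ and 6.33, 6.75 and 8.36 in Pax7-/- cells at day 0. At day 7 it read 6.47, 7.93 and 7.96 against 7.90, 7.67 and 9.59. Within each array set Pax7-/- was lower at day 0 and higher at day 7, without overlap, at -0.93 ± 0.17 and 1.58 ± 0.17 log2. Herpud1 (chromosome 8), induced by stress of the endoplasmic reticulum, had -0.88 ± 0.20 at day 0 and 1.29 ± 0.21 at day 7. Timp2 (chromosome 11), an inhibitor of matrix metalloproteinases, had -1.38 ± 0.20 and 0.74 ± 0.21, and Ccl2 (chromosome 11), a chemokine that attracts monocytes, -2.02 ± 0.44 and 1.06 ± 0.45. The day 7 difference of Ccl2 was 0.20 on narrow and 1.15 on wide arrays. All 4 passed at day 0, and Cdh11 and Herpud1 but not Timp2 and Ccl2 passed at day 7. At day 21 Cdh11 had 0.69 ± 0.17 and passed, while Herpud1 (0.42 ± 0.21), Timp2 (-0.15 ± 0.21) and Ccl2 (0.09 ± 0.45) did not. The mean of 6 fibroblast markers moved beside these genes, at 6.60 log2 in Pax7+/+ and 6.02 in Pax7-/- cells at day 0 and 5.22 and 5.91 at day 7; its part in the result was not tested. Fewer cells of a type and less RNA per cell cannot be told apart in bulk RNA.

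At day 7 the largest differences besides these, among those that passed, were those of Mmp2 (1.20 ± 0.17), the gelatinase that cleaves collagen IV, and Pcm1 (0.72 ± 0.12), a protein of centriolar satellites, on chromosome 8. On chromosome 11 they were those of Atp5h (1.01 ± 0.19), a subunit of ATP synthase, Rab34 (0.98 ± 0.18), a small GTPase of cilium formation, Med1 (0.84 ± 0.17), a Mediator subunit, and Tlk2 (0.83 ± 0.17), a kinase of chromatin assembly. For Atp5h the narrow arrays alone gave 0.95 and the wide arrays alone 0.75, both below the fitted value. Mmp2 read 6.24, 7.66 and 7.66 in Pax7+/+ and 6.89, 7.39 and 9.03 in Pax7-/- cells at day 7. Its narrow value in Pax7+/+ lay below both narrow values in Pax7-/-, and its wide values likewise.

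At day 21 the largest differences that passed besides that of Snord13 were those of C1qbp and Cyb5b, whose promoters are printed above. C1qbp (chromosome 11) read 5.08, 5.23 and 7.54 log2 in Pax7+/+ (narrow, narrow, wide) and 7.13, 8.91 and 8.65 in Pax7-/- cells (narrow, wide, wide). Cyb5b (chromosome 8) read 6.37 and 5.58 on narrow arrays with 8.57 on the wide one, and 7.98 with 9.81 and 9.64. Neither gene overlapped within an array set, and the differences were 1.65 ± 0.16 and 1.62 ± 0.22 log2, against 0.30 ± 0.16 and 0.31 ± 0.21 at day 0.

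Npm1 (chromosome 11), nucleophosmin of the nucleolus, read 7.41, 7.51 and 9.94 in Pax7+/+ and 9.70, 10.79 and 10.61 in Pax7-/- cells at day 21. The difference of 1.61 ± 0.25 log2 was 2.24 on narrow and 0.76 on wide arrays, the reverse of the order seen for the chromosome medians. Kpnb1 (chromosome 11), importin beta, differed by 1.38 ± 0.28, at 2.04 on narrow and 0.39 on wide arrays. Abce1 (chromosome 8), a ribosome recycling factor, differed by 1.51 ± 0.25, Get3 (chromosome 8), which delivers tail-anchored proteins to the endoplasmic reticulum, by 1.42 ± 0.19, and Eftud2 (chromosome 11), a GTPase of the spliceosome, by 1.41 ± 0.22. They too were larger on narrow than on wide arrays, at 2.02 and 0.68, 1.72 and 0.96, and 1.88 and 0.81. So were C1qbp (1.98 and 1.24) and Cyb5b (2.01 and 1.15), while Snord13 had 1.36 on narrow and 3.20 on wide arrays.

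Grb10 (chromosome 11), an imprinted adaptor that dampens insulin receptor signalling, had a negative difference at each day, which passed at day 21 and not at days 0 and 7. It read 6.04, 6.67 and 8.0012 in Pax7+/+ and 5.83, 6.0018 and 5.59 in Pax7-/- cells at day 21, lower in each array set, and its differences were -0.92 ± 0.29, -1.28 ± 0.29 and -1.47 ± 0.29 log2. Of the other 5 genes called lower at day 21, the rule named Ifi30 (-0.83 ± 0.15), a lysosomal thiol reductase, and Zfhx3 (-0.64 ± 0.14), a homeodomain factor, on chromosome 8 and Adam19 (-0.80 ± 0.16), a membrane metalloproteinase, on chromosome 11. Sparc (-0.47 ± 0.12), a matrix protein, was named as a member of a gene list, and Tmem104 (-0.48 ± 0.13) after its values were seen.

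Genes of shared complexes were then set beside the genes of the same complexes on the other autosomes. Of 150 listed genes measured on chromosomes 8 and 11, 43 lay below the threshold and are not counted. Values are list medians less the median of all 4490 other genes. The 7 proteasome subunits, which degrade ubiquitin-tagged proteins, had 0.38, 0.33 and 0.57 log2 at days 0, 7 and 21, and the 22 subunits encoded elsewhere -0.03, -0.01 and 0.32. At day 21, 5 of the 7 were called higher, among them Psmd11 (0.89 ± 0.19) and Psmd7 (0.72 ± 0.13), and 5 of the 22. Psmb3 (0.18 ± 0.17) and Psmd3 (0.50 ± 0.15) did not pass.

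The 5 cytosolic ribosomal protein genes had 0.36, 0.32 and 0.68 log2, and the 33 elsewhere -0.04, -0.03 and 0.36. All 5 were called higher at day 21, Rpl38 at 1.29 ± 0.25 and Rpl19 at 1.09 ± 0.18, as were 13 of the 33. These genes have many processed copies in the genome, so their probe sets may not be specific. Among 8 mitochondrial ribosomal proteins the medians were 0.25, 0.22 and 0.23 log2, and Mrpl38 (0.85 ± 0.14), Mrpl10 (0.70 ± 0.11) and Mrpl34 (0.64 ± 0.14) were called at day 21. The 23 elsewhere had 0.09, 0.04 and 0.11 log2, with 2 called at day 21. The 5 spliceosome genes, which remove introns, had 0.33, 0.34 and 0.75 log2 against 0.17, 0.06 and 0.28 for 23 elsewhere, and all 5 were called at day 21, with Prpf8 at 1.04 ± 0.14 and Srsf2 at 0.90 ± 0.16, as were 5 of the 23. Of 3 tRNA synthetases Kars (1.03 ± 0.15) and Rars (0.86 ± 0.14) were called at day 21, as was 1 of 15 elsewhere, and at day 0 the list stood at 0.34 log2 while the 15 elsewhere stood at -0.48 with 6 called lower.

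DNA replication genes read higher in Pax7-/- cells at day 21 on these chromosomes and elsewhere. The 10 on these chromosomes had 0.26, 0.31 and 0.64 log2 and the 28 elsewhere -0.03, -0.04 and 0.40. At day 21, 8 of the 10 were called higher, led by Mcm5 of the replicative helicase (1.36 ± 0.18), Pold2 of DNA polymerase delta (1.24 ± 0.11) and Rpa1, which binds single-stranded DNA (1.13 ± 0.11); of the 28, 12 were. Mcm5 had -0.05 ± 0.17 and -0.21 ± 0.18 at days 0 and 7. The 9 mitosis genes had 0.25, 0.23 and 0.56 log2 against -0.05, -0.10 and 0.33 for 23 elsewhere, and 6 were called at day 21, among them Top2a (1.13 ± 0.14), the topoisomerase of dividing cells, Cenpn of the kinetochore (1.04 ± 0.15) and the kinase Aurkb (0.90 ± 0.16), beside 8 of the 23. Stem cell markers stood beside these at day 21, 0.67 log2 higher on the mean of 8 genes in Pax7-/- cells with 3 of 8 called. Neural markers were higher by 0.70 log2 (2 of 5 called) and muscle markers by 0.43 (0 of 5 called). Markers of endoderm and fibroblasts went the other way, at -0.92 and -0.91. The part of any of these markers in the result was not tested.

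Of the smaller groups, the 4 genes listed under translation initiation had 0.24, 0.32 and 0.50 log2. They were Eif4a1, Eif4ebp1, Eif4enif1 and Eif5a, and not all of them are initiation factors. Eif5a (0.64 ± 0.10) was among 3 called at day 21. The 26 listed genes elsewhere had -0.04, -0.00 and 0.30, with 5 called. The 4 respiratory chain and ATP synthase genes had 0.35, 0.31 and 0.58, with Atp5h (0.77 ± 0.19) and Cox4i1 (0.69 ± 0.14) among 3 called, and the 44 elsewhere 0.10, -0.09 and 0.15, with 4 called. The RNA polymerase II subunits Polr2a (0.55 ± 0.14) and Polr2c (0.52 ± 0.11) were both called, as were 2 of 15 RNA polymerase subunits elsewhere. The 9 vesicle coat and proton pump genes had 0.20, 0.24 and 0.33 log2 against -0.06, -0.15 and -0.10 for 23 elsewhere. Atp6v1b2 (1.04 ± 0.28) and Ap2b1 (0.65 ± 0.12) were among 3 called higher at day 21, while of the 23 elsewhere 0 were called higher and 1 lower.

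**Figure D5:**
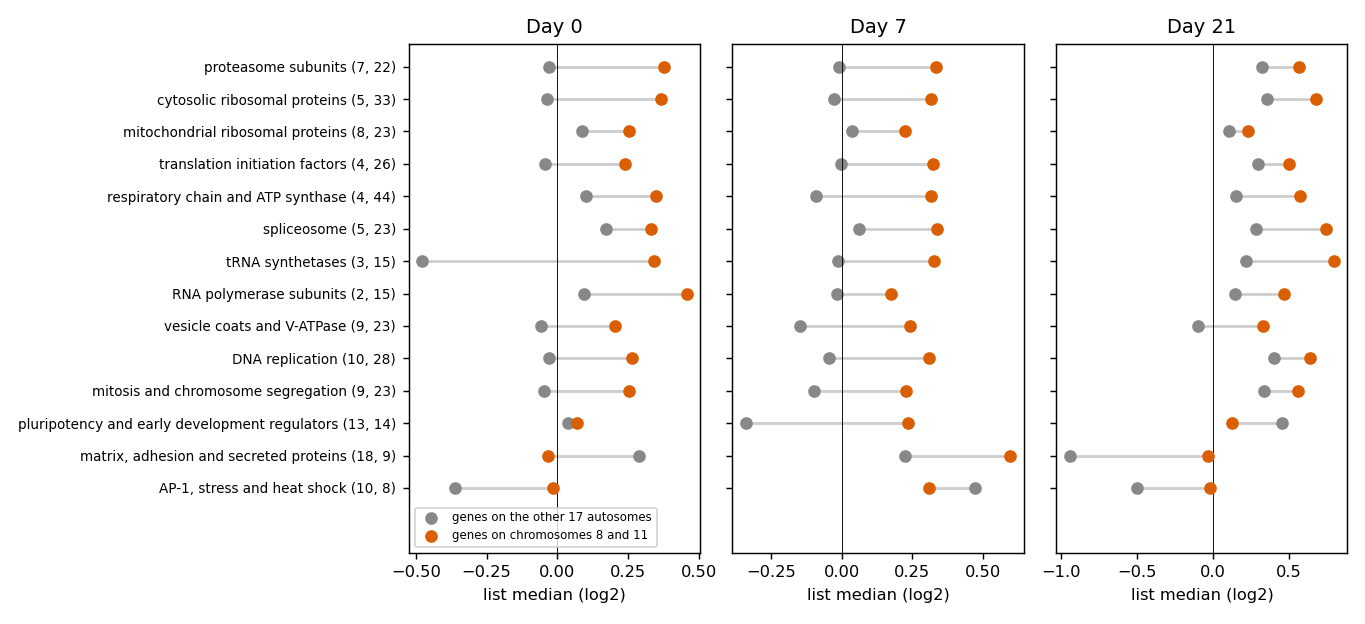
Median Pax7-/- minus Pax7+/+ difference (log2, less the median of the 4490 other genes) of each gene list at days 0, 7 and 21, for its genes on chromosomes 8 and 11 (orange) and on the other 17 autosomes (grey), with both gene numbers beside the name. Proteasome subunits stand at 0.38 against -0.03 at day 0 and at 0.57 against 0.32 at day 21, while matrix genes stand at -0.03 against 0.29 at day 0.

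The lists tied to cell state had other values. The 18 matrix, adhesion and secreted proteins had -0.03, 0.60 and -0.03 log2 at days 0, 7 and 21, and the 9 elsewhere 0.29, 0.22 and -0.94. The 10 stress and AP-1 genes had -0.02, 0.31 and -0.02, and the 8 elsewhere -0.36, 0.47 and -0.50. The 13 regulators of pluripotency and early development had 0.07, 0.23 and 0.12, and the 14 elsewhere 0.04, -0.34 and 0.46, with 6 called higher and 1 lower at day 21. On these chromosomes at day 21 Cbx2 (0.79 ± 0.14), a Polycomb protein, Sall1 (0.44 ± 0.11) and Sox9 (0.99 ± 0.26), both transcription factors, were called higher and Grb10 lower. Sox9 stood at 0.87 on narrow and 0.79 on wide arrays, both below its fitted value. Zfp42, a stem cell marker, had 0.79 ± 0.37, -0.27 ± 0.38 and 0.19 ± 0.38. Markers of endoderm differed by 0.41, 0.43 and -0.92 log2 and of fibroblasts by -0.58, 0.69 and -0.91 on their means. Of the 7 endoderm markers 3, 0 and 2 were called at days 0, 7 and 21, and of the 6 fibroblast markers 0, 0 and 1. The part of these markers in the lists was not tested.

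The change over differentiation, averaged over both genotypes, did not enter the choice of chromosomes and was tested with limma. The threshold was set on the mean over all 18 arrays, so a gene could reach it through the day at which it was high, and the counts are given as a description. From day 0 to day 7, 214 of the 874 genes changed (24.5%), 105 rising and 109 falling, against 9.77% of all genes (4.78% rising and 4.99% falling) and 27% of the 4490 equally selected genes of the other autosomes. Of the 214, 33 had a mean at or below the threshold at 1 or both of these days, as had 217 of the 1214 others called. From day 7 to day 21, 165 changed (18.9%), 42 rising and 123 falling, against 7.32% of all genes (2.5% and 4.82%) and 18.3% of the 4490. Here 13 of the 165 and 95 of the 823 others had such a mean. Among the genes named for these steps they included Car4, Ccl2, Ccl7, Cobl and Col4a2 at the earlier one and Trpv3, Ccl2, Cdh5, Hoxb9 and Zfp42 at the later one, whose changes are for that reason not independent of the threshold. The median changes were -0.02 log2 for both sets of genes at the earlier step, and -0.05 for these genes and -0.08 for the others at the later one. In share and median these chromosomes thus lay close to the other autosomes, a difference that was not tested. The later count was 105 or 106 without Pax7+/+ day 7 replicate 2 or 3, 106 without Pax7-/- day 7 replicate 3, and 107 or 109 without Pax7-/- day 21 replicate 2 or 3. Without the array set in the fit, 6 genes passed at the earlier step and 0 at the later one in limma (39 at an unadjusted p under 0.05).

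Car4 (chromosome 11), a membrane-bound carbonic anhydrase, rose the most by day 7. It read 5.52, 4.64 and 5.81 in Pax7+/+ and 5.15, 5.12 and 7.40 in Pax7-/- cells at day 0, and 8.39, 9.65 and 9.96 and then 7.52, 7.83 and 9.74 at day 7. Every day 7 value was above every day 0 value, a rise of 2.94 ± 0.25 log2 (limma adjusted p = 1.11e-06). The paired basement membrane genes Col4a2 and Col4a1 (chromosome 8), the chains of collagen IV, rose by 2.09 ± 0.19 (adjusted p = 2.45e-06) and 2.02 ± 0.20 (6.95e-06). Tax1bp3, a PDZ protein of chromosome 11, rose by 1.27 ± 0.09.

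The 5 genes named for the largest falls to day 7 were all on chromosome 11. Ccl2 read 10.16, 9.54 and 10.57 in Pax7+/+ and 7.21, 7.84 and 9.16 in Pax7-/- cells at day 0, and 6.01, 5.40 and 5.16 and then 6.18, 6.24 and 6.44 at day 7. All day 7 values lay below all day 0 values, and Ccl2 fell by 3.33 ± 0.31 log2 (limma adjusted p = 3.85e-06). The neighbouring chemokine Ccl7 fell by 2.91 ± 0.34 (4.4e-05), the actin regulator Cobl by 1.79 ± 0.24, Timp2 by 1.57 ± 0.15 and Gfpt2, an enzyme of hexosamine synthesis, by 1.54 ± 0.13. The falls of Ccl2, Ccl7 and Timp2 were not shared evenly and were larger in Pax7+/+ cells. Their fitted Pax7-/- minus Pax7+/+ differences were -2.02, -1.72 and -1.38 log2 at day 0, and 1.06, 0.69 and 0.74 at day 7. Of these, only those of Ccl2 and Timp2 at day 0 passed. At day 7 the narrow arrays alone gave 0.20, 0.14 and 0.86, and the wide arrays alone 1.15, 0.25 and 0.62. The fitted day 7 value of Ccl7 thus lay above that of either set.

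Between days 7 and 21 the ion channel gene Trpv3 (1.86 ± 0.41), Ccl2 (1.84 ± 0.31), the forebrain factor Otx1 (1.26 ± 0.23) and Lgals9, a galectin (1.16 ± 0.11), all of chromosome 11, rose, as did Cdh5 (1.34 ± 0.38), the endothelial cadherin of chromosome 8 (limma adjusted p from 2.66e-05 for Lgals9 to 0.0413 for Cdh5). The rise of Otx1 was larger in Pax7-/- cells, whose difference from Pax7+/+ was 0.19 ± 0.34 at day 7 and 1.21 ± 0.34 at day 21. On narrow arrays the rises were 0.67 (Trpv3), 0.68 (Ccl2), 0.53 (Otx1), 1.21 (Lgals9) and 0.70 (Cdh5). On wide arrays they were 2.86, 2.71, 1.84, 1.08 and 2.05. Lgals9 read 6.39, 8.01 and 8.01 and then 6.20, 6.65 and 7.83 at day 7, and 7.86, 7.72 and 8.95 and then 7.44, 8.98 and 9.14 at day 21. Within each array set every day 21 value lay above every day 7 value. Hoxb9, a trunk patterning gene, fell by 1.11 ± 0.16 and Upp1, a uridine phosphorylase, by 0.98 ± 0.21 on chromosome 11. On chromosome 8 Abce1 fell by 1.06 ± 0.17, and the stem cell genes Zfp42 and Triml2 by 1.00 ± 0.26 and 0.89 ± 0.15 (limma adjusted p from 0.00079 for Hoxb9 to 0.0308 for Zfp42). For Abce1 the fall was not shared evenly: it read 6.87, 6.64 and 9.37 at day 21 in Pax7+/+ and 8.78, 10.04 and 10.05 in Pax7-/- cells, whereas at day 7 the genotypes read 8.89, 10.24 and 10.24, and 8.95, 9.31 and 10.49.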

How the data were processed

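RNA from 18 samples was hybridised to 1-colour Affymetrix arrays. The authors deposited 1 log2 intensity for each probe set and array; the submitters' processing notes list Partek and RMA, with no version and no order of steps. No array pair was identical. Genes, chromosomes and lists were chosen with earlier results of these data known.

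Of 41345 probe sets, 23521 carried 1 gene symbol and 1814 several. The probe set with the highest mean stood for each of 22180 genes. Identifiers matched the RefSeq table (GRCm38.p6) for 21994 genes, and 21991 had a chromosome. The arrays' own build is not given in the sources used here.

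Differences came from lmFit, contrasts and eBayes of limma 3.58.1 (R 4.3.3), fitted to all 18 arrays, with 6 group means and the array set (SD over probe sets above 1.6 is wide) as a fixed block, leaving 11 residual degrees of freedom; p-values were adjusted by Benjamini-Hochberg over all genes, with 0.05 as the threshold. Errors are the fit's SE. At days 7 and 21 the genotypes were not balanced over the array sets, so a fitted difference can lie outside the values of both sets. The median SE of the genes described was 0.14 log2 at day 0 and 0.15 at days 7 and 21. For arrays their number limits the precision: with 3 arrays a group, 0.1 is the smallest p that an exact permutation test allows. The code was tested on simulated data.

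Genes were named by rule: per genotype comparison and chromosome the 4 largest higher and 2 largest lower differences that passed with the same sign in both array sets; per day step the 5 largest rises and falls; per list up to 4 genes with the smallest adjusted p at day 21; and per chromosome the 3 genes with the largest smallest-difference over days and sets. Predicted symbols were passed over. For the step to day 7, 1 gene that the rule names is not reported here. Replicate numbers did not pair samples: same-numbered arrays correlated between -0.22 and 0.23. Alternatives were other normalizations, probe set summaries, thresholds, reference genes, array sets, a replicate block and the loss of each array in turn. Summaries and figures used Python 3.11.15 with matplotlib 3.10.9.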

Additional observations from a re-analysis of the deposited data

Results flagged for a closer look

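Probe sets that carry several gene symbols were used in none of the comparisons, and those of chromosomes 8 and 11 above the same threshold showed a signal above that of the other autosomes. Each value is a median Pax7-/- minus Pax7+/+ difference less the median of 211 such probe sets on the other 17 autosomes, given without a test. The 7 of chromosome 8, each with all its symbols on that chromosome, had 0.21 log2 at day 0, 0.27 at day 7 and 0.29 at day 21. The 23 of chromosome 11 had 0.31, 0.32 and 0.46 log2.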

How the results depend on the processing

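All 6 chromosome medians stayed above 0 under each of the 32 alternatives run for them. With genes above the 50th percentile the chromosome 8 median was 0.17, 0.22 and 0.23 log2 at days 0, 7 and 21 and that of chromosome 11 0.17, 0.22 and 0.21. With genes above the 90th percentile they were 0.28, 0.35 and 0.38, and 0.34 and 0.39 at days 0 and 7 for chromosome 11. With all genes they were 0.0716, 0.11 and 0.13, and 0.0827, 0.11 and 0.0977. The narrow arrays alone gave 0.21 (day 7) and 0.19 (day 21) for chromosome 8 and 0.19, 0.24 and 0.19 for chromosome 11, and the wide arrays alone 0.28, 0.36 and 0.36, and 0.32, 0.35 and 0.33. Without the array set chromosome 11 gave 0.37 at day 7 and 0.24 at day 21. Leaving out single arrays gave 0.235 to 0.311 (day 7) and 0.252 to 0.34 (day 21) for chromosome 8. Scaling all arrays to 1 spread, and setting the threshold on the Pax7+/+ arrays alone, were chosen after seeing the data and moved no median by more than the spread between replicates.

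The counts of genes called were less stable. Without the array set they were 0 at days 0, 7 and 21, and 6 and 0 for the steps to day 7 and day 21 (limma; 10, 11, 88, 59 and 39 at an unadjusted p under 0.05). At an adjusted p under 0.01 they were 14, 2, 158, 133 and 68. Quantile normalization gave 89 at day 0 and 65 at day 7. With a replicate block beside the array set, 9 genes were called at day 7; the other counts with this block were 41 and 233 at days 0 and 21 and 194 and 137 for the steps, and 7 of 18 arrays correlated best with their own number. Leaving out single arrays gave 20 to 68 at day 0, 2 to 54 at day 7 and 105 to 175 for the step to day 21. The cause was not tested, apart from the smaller number of samples or genes that an alternative itself brings. Each day and array set holds only 1 or 2 arrays of a genotype, which limits values within a set.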

Other observations

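Where genes of chromosomes 8 and 11 had a further probe set above the threshold, it was read as well. The 10 further probe sets of chromosome 11 had median differences of 0.52, 0.46 and 0.24 log2 at days 0, 7 and 21, less the median of 119 such probe sets on the other autosomes. The 4 of chromosome 8 had -0.00, 0.23 and -0.26 log2, so that day 7 alone lay above the other autosomes there.

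The X chromosome, whose dose differs between male and female cell lines, had 148 genes above the threshold. Their median difference less that of the other 17 autosomes was -0.00, -0.01 and 0.01 log2 at days 0, 7 and 21.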
